A study of Mus musculus with 18 samples.

Results

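Open chromatin of liver macrophages (LMs) was mapped by fast-ATAC-Seq, and 14630 of the 69499 open regions in the deposited list (21.1%) lay in later introns, that is, in any intron of a coding gene other than its first. A region was taken when its midpoint was in no exon, more than 1000 bp from every transcription start site (TSS), inside an intron of the longest transcript of a protein-coding gene, and in the first intron of no such gene. The 68533 regions on chromosomes 1 to 19 were placed on the GENCODE annotation of mm9, and the 966 regions elsewhere were not. Only positions relative to genes were used to choose the regions, and their width, base composition, and motifs were not.

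The LMs came from male C57BL/6J mice that were given adeno-associated virus (AAV) at 8 weeks of age and then a high-fat, high-sucrose diet (HFHSD) for 4 weeks. Control mice received AAV-TBG-GFP. AAV-TBG-CRE deleted *Rev-erbα* and *Rev-erbβ* in *Reverb*-hDKO mice and, together with them, *Scap* in *Reverb/Scap*-hTKO mice, which carry floxed alleles of these genes. The TBG promoter is specific to hepatocytes, so the deletion was aimed at these cells and not at the LMs. Each genotype had 3 replicates at either time, ZT10 or ZT22, which makes 18 libraries of 50000 cells, and titles of the libraries call the cells KC where the cell type label reads liver macrophage. The series' own design line calls the triple knockout a double one, and the library labels were followed here. The deposited list holds positions alone and was taken to join all 18 libraries, though it names none. It gives no count, score, or library, so no depth is known and no genotype, time, or replicate could be compared, and the values below describe where the joined regions lie.

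Introns are cut out of the transcript, yet their DNA stays in the chromatin and holds many of the enhancers of a gene or of its neighbors. Enhancers are bound by transcription factors that displace nucleosomes, which lets the Tn5 transposase of ATAC-Seq insert its adapters there. The first intron lies next to the promoter and is known to be rich in regulatory sequence, whereas later introns lie deeper in the transcribed unit. In macrophages, PU.1 (encoded by *Spi1*) binds enhancers together with AP-1 and C/EBP factors, and in hepatocytes HNF4, HNF1, FOXA, and C/EBP factors do so. In the study, RNA from enhancers was measured at intergenic open regions, and the regions of later introns were not among these.

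Sequences of 6 regions are shown because they carry, in short stretches of later introns, the motifs that the results turn on. They are read on the plus strand of mm9 (NCBIM37), and capitals mark the letters of the motif named with each. Those of *Abca1*, *Cd5l*, and the HNF4 motif of *Ppara* are the widest later-intron regions of the macrophage or hepatocyte gene list with that motif in the central window (75 bp to either side of the midpoint), and the other 3 were added after the values had been seen.
*Abca1*, intron 5, chr4:53133295-53133586, AP-1: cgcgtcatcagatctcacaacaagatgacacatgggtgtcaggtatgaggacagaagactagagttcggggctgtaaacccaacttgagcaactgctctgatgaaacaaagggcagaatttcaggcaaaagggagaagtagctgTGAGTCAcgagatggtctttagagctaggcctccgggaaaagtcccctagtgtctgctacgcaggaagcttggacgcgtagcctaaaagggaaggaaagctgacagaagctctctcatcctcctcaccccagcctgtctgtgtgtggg
*Cd5l*, intron 5, chr3:87173270-87173420, PU.1: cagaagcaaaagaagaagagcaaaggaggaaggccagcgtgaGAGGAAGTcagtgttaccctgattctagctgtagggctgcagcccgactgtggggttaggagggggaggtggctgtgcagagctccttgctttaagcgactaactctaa
*Ppara*, intron 2, chr15:85607445-85607595, HNF4 read on the minus strand: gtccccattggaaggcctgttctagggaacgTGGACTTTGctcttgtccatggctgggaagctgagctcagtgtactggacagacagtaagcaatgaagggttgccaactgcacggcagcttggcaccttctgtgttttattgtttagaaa
*Ppara*, intron 4, chr15:85618032-85618184, C/EBP read on the minus strand: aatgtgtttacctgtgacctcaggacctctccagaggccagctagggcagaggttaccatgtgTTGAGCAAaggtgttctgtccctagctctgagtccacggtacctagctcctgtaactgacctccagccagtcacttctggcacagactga
*Flt1*, intron 23, chr5:148391483-148391633, ETS: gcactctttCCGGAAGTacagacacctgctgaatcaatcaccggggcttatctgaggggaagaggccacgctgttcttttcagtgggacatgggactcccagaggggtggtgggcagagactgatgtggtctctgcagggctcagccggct
*Lmo4*, intron 2, chr3:143861478-143861775, CTCF read on the minus strand: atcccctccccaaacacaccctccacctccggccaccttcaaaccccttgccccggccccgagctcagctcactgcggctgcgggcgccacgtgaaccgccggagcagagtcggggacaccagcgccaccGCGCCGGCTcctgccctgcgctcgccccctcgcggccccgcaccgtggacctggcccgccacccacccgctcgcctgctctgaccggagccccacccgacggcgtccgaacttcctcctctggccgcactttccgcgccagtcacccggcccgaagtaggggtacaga
ABCA1 exports cholesterol from macrophages, CD5L is a secreted protein of tissue macrophages, PPARα drives fatty acid oxidation in hepatocytes, FLT1 is a VEGF receptor of endothelial cells, and LMO4 is a LIM domain cofactor of transcription. The *Abca1* region is 292 bp wide and lies 39326 bp from the nearest TSS and 7028 bp from the nearest exon. The *Cd5l* region, of the commonest width in the list, lies 654 bp from an exon, in the last of 5 introns. The *Ppara* regions lie 4876 and 15464 bp from a TSS. The *Lmo4* region differs from the rest in its base composition, with 79.5% G or C in its central window against 51.0% for *Abca1*, 53.6% for *Cd5l*, 58.3% for *Flt1*, and 50.3% and 54.3% for *Ppara*. A match of letters is a description of the sequence and does not show that a factor was bound.

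The first question was whether later introns hold more or fewer open regions than other sequence. Later introns made up 601 Mb, or 25.1% of the sequence on chromosomes 1 to 19, and held 21.3% of the regions there (95% Wilson interval 21.04 to 21.66%). This is 24.3 regions per Mb (23.9 to 24.7). First introns held 7399 regions in 213 Mb, or 34.7 per Mb (33.9 to 35.5), and intergenic sequence held 22243 regions in 1366 Mb, or 16.3 per Mb (16.1 to 16.5). Later introns therefore stood between both, with first introns 1.42 times as dense (exact conditional 95% interval 1.38 to 1.46) and later introns 1.49 times as dense as intergenic sequence (1.46 to 1.53). The density was higher in first than in later introns on 19 of 19 chromosomes, with ratios from 1.23 on chromosome 17 to 1.86 on chromosome 8, and higher in later introns than in intergenic sequence on 19 of 19. Density in later introns ranged from 19.3 per Mb on chromosome 1 to 29.8 per Mb on chromosome 11. Intervals here and below cover counting error only, and neighboring regions are not independent. No spread between libraries enters them.

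The regions of later introns lay farther from promoters than those of first introns. Their median distance to the nearest TSS was 13942 bp (quartiles 5795 and 32128), against 8168 bp in first introns and 19575 bp in intergenic sequence, and 60.4% of them were over 10 kb from every TSS. The nearest lay 1001 bp from a TSS, and the farthest of the later-intron regions left out for being too near lay 1000 bp from one. Density in later introns fell with this distance from 39.8 per Mb at 1 to 2 kb to 29.5 at 10 to 20 kb and 9.09 beyond 100 kb. The ratio between the classes varied with distance. At 1 to 2 kb first introns were 1.51 times as dense as later introns (1.39 to 1.65), at 2 to 5 kb 1.24 times (1.16 to 1.32), at 5 to 10 kb 1.32 times (1.24 to 1.40), at 10 to 20 kb 1.28 times (1.21 to 1.37), and at 20 to 50 kb 1.12 times (1.05 to 1.20). At 50 to 100 kb the ratio was 1.02 with an interval that holds 1 (0.910 to 1.15), and beyond 100 kb, with 155 regions in first introns, it was 1.31 (1.09 to 1.56). Later introns were the denser class against intergenic sequence. At 1 to 2 kb later introns had 1.05 times the intergenic density, which an equal density would allow (0.967 to 1.15). The ratio was 1.11 at 2 to 5 kb (1.05 to 1.18), 1.09 at 5 to 10 kb (1.03 to 1.14), 1.15 at 10 to 20 kb (1.10 to 1.21), 1.20 at 20 to 50 kb, 1.296 at 50 to 100 kb, and 1.60 beyond 100 kb (1.47 to 1.74).

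**Figure D1:**
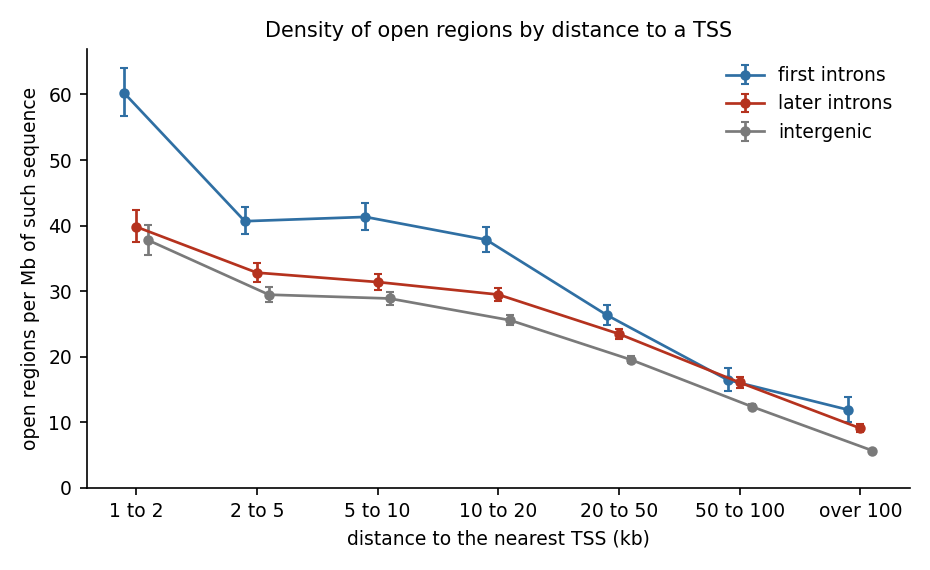
Open regions per Mb of sequence (y) against the distance to the nearest TSS in kb (x) in first introns, later introns, and intergenic sequence, with 95% Poisson intervals as bars. Later introns fall from 39.8 to 9.09 per Mb, and lie below first introns and above intergenic sequence, with an interval of the ratio that holds 1 at 50 to 100 kb against first introns and at 1 to 2 kb against intergenic sequence.

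Density also changed with the place of the intron in its gene. The second intron held 3813 regions (26.1% of those in later introns) at 29.8 per Mb (28.8 to 30.7), the third 26.3 per Mb (25.3 to 27.4), and the fourth 23.6 per Mb (22.4 to 24.9). From the fifth intron on the values were close to each other, with 22.6 per Mb in the fifth, 22.2 in introns 6 to 10, 21.1 in introns 11 to 20, and 21.2 in introns past the 20th, and their intervals overlap. The distance to a TSS moved along with the intron number, with a median of 11837 bp in the second intron and 15782 bp past the 20th, and its part in the trend was not tested. Of the regions, 1578 (10.8%) lay in the last intron of their gene. Within an intron the regions were spread almost evenly, and of 5 equal parts of the intron the one at the 5′ end held 19.3%, the middle one 21.1%, and the one at the 3′ end 18.7%.

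**Figure D2:**
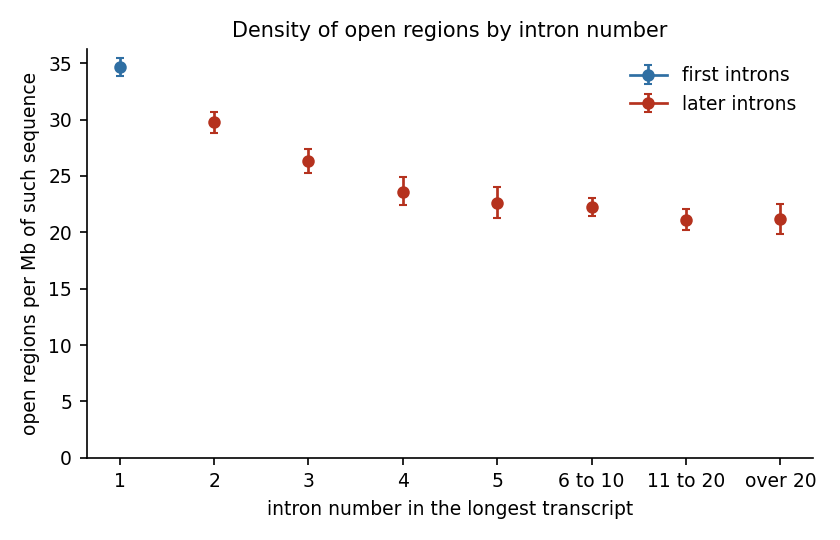
Open regions per Mb of intron (y) by the number of the intron in the longest transcript (x), first introns apart from later ones, with 95% Poisson intervals as bars. The density falls from 34.7 in first introns to 29.8 in the second and 22.6 in the fifth and then stays between 21.1 and 22.2.

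Short introns were denser than long ones. In later introns under 5 kb there were 29.9 regions per Mb (29.1 to 30.8), in those of 20 to 50 kb 25.2, and in those over 100 kb 11.8 (11.2 to 12.5). First introns were the denser class in each of the 5 length groups, by 1.48 times (1.37 to 1.60) in introns over 100 kb to 1.82 times (1.72 to 1.92) in introns of 20 to 50 kb. Density was also highest beside exons and lowest far from them, though not in steady steps. It was 31.5 per Mb less than 250 bp from an exon (30.1 to 33.0), 26.7 from 250 to 1000 bp (25.8 to 27.7), 28.1 from 1000 to 5000 bp (27.4 to 28.9), 22.1 from 5000 to 20000 bp, and 12.4 at 20000 bp or more (11.7 to 13.2). The median distance to an exon was 2004 bp, and 753 regions (5.15%) reached into an exon although their midpoint was outside it. Another listed region lay within 500 bp of 1997 of the later-intron regions (13.7%), and this share was not taken for the other classes.

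Most regions of later introns shared the same width. The commonest region reached 75 bp to either side of its central base, and in later introns this was also the smallest width, shared by 8201 regions (56.1%, Wilson interval 55.3 to 56.9). The share was 54.3% in first introns, 51.3% in intergenic sequence, 37.7% in exons, and 30.5% within 1 kb of a TSS. By this share the regions of later introns were the narrowest of these classes. The difference from intergenic regions was 4.76 percentage points (Newcombe's 95% interval 3.72 to 5.80), with the same sign on 18 of 19 chromosomes. The difference from first introns was 1.79 points (0.402 to 3.18), and its interval held 0 when only regions over 10 kb from every TSS were compared (0.604 points, −1.39 to 2.61). Only 294 regions (2.01%) were over 2 times as wide as the commonest width, against 4.12% near a TSS. The share was 1.97% in first introns and 2.21% in intergenic sequence, and the interval of either difference held 0. The widest lay in *Dpysl3*, a gene of cytoskeletal control in neurons, with 541 bp. The next were in *Pde4b*, which degrades cAMP, with 536 bp, and in *Gucy2g*, a receptor guanylyl cyclase gene, with 529 bp. Their central windows held 52.3%, 57.6%, and 47.7% G or C.

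G and C made up 50.4% ± 6.06 (SD over 14630 regions) of the central window of later-intron regions. The difference from first introns was −0.687 points (95% interval −0.862 to −0.512), with the same sign on 18 of 19 chromosomes. The difference from intergenic regions was −0.0991 points, with an interval that holds 0 (−0.231 to 0.0333). Windows of the same size centered 1000 bp to either side, where no listed region lay, had 46.0%, or 4.34 points less (4.21 to 4.48). CpG was rare, at 0.239 of the number that the base composition would give, against 0.257 in first introns, 0.282 in intergenic regions, and 0.440 over all regions, and 15.6% of the later-intron windows had no CpG.

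The motifs of 20 factors or factor families were searched in the central window on both strands as exact letters, where N is any base. The letters were TGACTCA or TGAGTCA for AP-1, GAGGAAGT for PU.1, CAGGAAGT or CCGGAAGT for other ETS factors, TTGCNNAA for C/EBP, TGTTTAC or TGTTTGC for FOX, TGTGGTT for RUNX, TGCTGACT or TGCTGAGT for MAF, CACGTG for the E-box, TAGGTCA for ROR and REV-ERB, AGNNGGCGC for CTCF, CAAAGTCCA for HNF4, and GTTAATNAT for HNF1. IRF was GAAANTGAA, MEF2 was CTATTTNTA, NF-kB was GGANTTTCC, GATA was AGATAAG, SOX was ACAATGG, SRE was TCACCCCAC, TEAD was CATTCCA, and the GC box was GGGGCGGG. Both AP-1 patterns are each other's reverse complement, a MAF match can share letters with an AP-1 match, and a FOX match can share letters with a C/EBP match. At least 1 of the 20 was present in 7113 later-intron regions (48.6%), and the others hold none of these letters in the window. The share was about the same in first introns (48.5%) and in intergenic regions (49.9%).

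C/EBP letters were the most frequent, in 1497 later-intron regions (10.2%) and in 8.82% of all regions. FOX followed with 8.42% (6.74% of all regions), AP-1 with 1000 regions or 6.84% (5.70% of all), and RUNX with 4.6% (3.89% of all). The E-box, which CLOCK and BMAL1 bind along with MYC and SREBP, was present in 4.57% (5.01% of all), ETS letters in 4.56% (4.97% of all), PU.1 letters in 603 regions or 4.12% (3.35% of all), and the ROR and REV-ERB letters in 2.53% (2.05% of all). HNF4 was rarer, with 182 regions or 1.24% (0.824% of all), and the SRE, which SREBP binds, was present in 36 regions or 0.246% (0.255% of all). The GC box was present in 1.10% against 5.34% of all regions, which include those near a TSS, and in 1.27% of regions in first introns and 1.71% of intergenic regions. CTCF had 2.09% against 3.95% of all regions, 1.66% in first introns, and 3.23% in intergenic sequence.

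Set against the windows beside the same regions, 15 of the 20 motifs were more frequent within the regions, 2 were less frequent, and the interval of 3 held 0. PU.1 had 4.12% against 0.833% beside (difference 3.29 points, 2.96 to 3.64), AP-1 6.84% against 2.54% (4.30 points, 3.86 to 4.76), C/EBP 10.2% against 5.69% (4.54 points, 3.99 to 5.11), and HNF4 1.24% against 0.201% (1.04 points, 0.865 to 1.24). GATA rose little, with 2.22% against 1.85% (0.376 points, 0.0971 to 0.669). MEF2 and SOX were the less frequent, with 0.663% against 0.921% and 1.65% against 2.20%. For IRF, SRE, and TEAD the interval of the difference held 0. The G and C content also differed between these windows by the 4.34 points above, and its part in these shares was not tested.

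Set against first introns, most motifs had like shares. The interval of the difference held 0 for 16 of 20 motifs, among them AP-1 (−0.477 points, −1.21 to 0.233), PU.1 (−0.0275 points, −0.598 to 0.518), and C/EBP (0.501 points, −0.345 to 1.33). FOX was higher in later introns (8.42% against 7.51%, 0.907 points, 0.144 to 1.65), and so were CTCF (2.09% against 1.66%, 0.429 points, 0.0432 to 0.792) and HNF4 (1.24% against 0.892%, 0.352 points, 0.0585 to 0.623). TEAD was lower (2.35% against 2.85%, −0.500 points, −0.967 to −0.0610). These intervals are small steps from 0 and were not adjusted for 20 motifs. When only regions over 10 kb from every TSS were compared, which are fewer, the differences were 1.06 points for FOX, 0.505 for CTCF, 0.261 for HNF4, and −0.622 for TEAD, and each interval held 0. Set against intergenic regions, CTCF was lower in later introns (2.09% against 3.23%, −1.14 points, −1.47 to −0.809, on 17 of 19 chromosomes), and so was the GC box (1.10% against 1.71%, −0.608 points, −0.846 to −0.364, on 17 of 19). HNF4 was higher (1.24% against 0.967%, 0.277 points, 0.0610 to 0.505, on 11 of 19), and the interval of the other 17 motifs held 0.

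**Figure D3:**
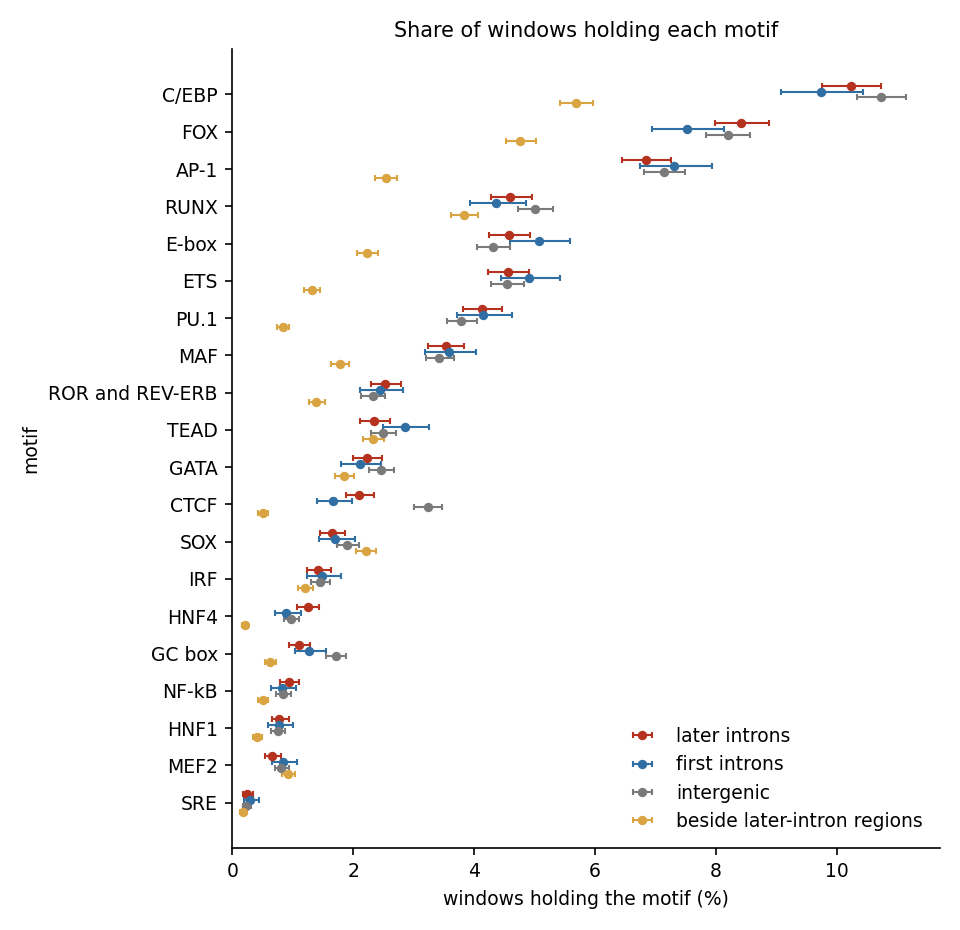
Share of central windows that hold each motif in % (x), by motif (y), for later introns, first introns, intergenic regions, and windows beside later-intron regions, with 95% Wilson intervals as bars. For most motifs the 3 classes of regions overlap and lie above the windows beside them, as for PU.1 with 4.12% against 0.833%, and CTCF is lower in later introns (2.09%) than in intergenic regions (3.23%).

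Regions of later introns also differed among themselves. Of the 20 motifs, 3 were more frequent in the 8834 regions over 10 kb from every TSS than in the 5796 nearer ones. These were C/EBP (10.9% against 9.23%, 1.66 points, 0.661 to 2.64), FOX (9.02% against 7.51%, 1.52 points, 0.603 to 2.41), and GATA (2.45% against 1.88%, 0.564 points, 0.0768 to 1.03). CTCF and the GC box were less frequent far from a TSS, with 1.74% against 2.62% and 0.815% against 1.54%. Regions with some motifs were wider than the rest. Of those with a C/EBP match 47.1% had the smallest width, a difference of −9.98 points from those without (−12.6 to −7.31), and the values were 43.1% for CTCF (−13.2 points, −18.7 to −7.54), 45.6% for HNF1, 47.8% for HNF4, and 49.0% for the E-box. By contrast, 61.7% of regions with a RUNX match (5.88 points more, 2.06 to 9.57) and 60.4% of those with an ETS match (4.57 points more, 0.723 to 8.31) had the smallest width. No difference was resolved between regions with and without the partner in the pairs of motifs compared. Of 1000 regions with AP-1 letters, 41 also held PU.1 letters (4.10%, against 4.12% of the rest), and the interval of the difference held 0 in each of the 7 pairs compared. Some of these intervals are wide. HNF1 letters were present in 3 regions with HNF4 letters (1.65%, against 0.768% of the rest), which allows a difference of up to 3.97 points.

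Matches were not centered on the regions. Of the AP-1 matches within 100 bp of the midpoint, 832 lay on the side of lower genome coordinates and 517 on the other, or 61.7% (Wilson interval 59.1 to 64.2), with more on the lower side on 19 of 19 chromosomes. The share was 62.8% for PU.1 (59.3 to 66.1), 63.4% for ETS, 60.6% for C/EBP, 68.7% for CTCF (64.0 to 73.0), and 73.5% for HNF4 (67.3 to 78.9). It did not depend on the strand of the gene, with 62.3% in genes on the plus strand and 63.2% in genes on the minus strand for PU.1, and 60.0% and 63.4% for AP-1. In first introns it was 63.3% for AP-1 and 63.8% for PU.1. Of the 20 motifs, 12 had an interval above 50%, none had one below, and 8 had one that holds it, among them GATA (49.1%), SOX (46.6%), and TEAD (47.5%), whose matches were about as frequent from 200 to 500 bp away as within 150 bp. The GC box, with 43.9% (38.0 to 50.1), and NF-kB, with 43.8%, were more frequent near the midpoint and had no more matches on the lower side. In bins of 50 bp, AP-1 letters peaked at 0.603 matches per kb in the bin centered 50 bp below the midpoint, with 0.547 at the midpoint and 0.343 in the bin 50 bp above it. A window moved by 35 bp to the lower side, which was chosen after this was seen, held AP-1 letters in 7.46% of later-intron regions and C/EBP letters in 11.03%. The reading of coordinates was checked on 26535 annotated start codons of the same assembly, and 26535 of them read ATG. Whether the listed positions themselves are displaced was not tested, and the motif shares given for windows around the midpoint depend on these positions.

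**Figure D4:**
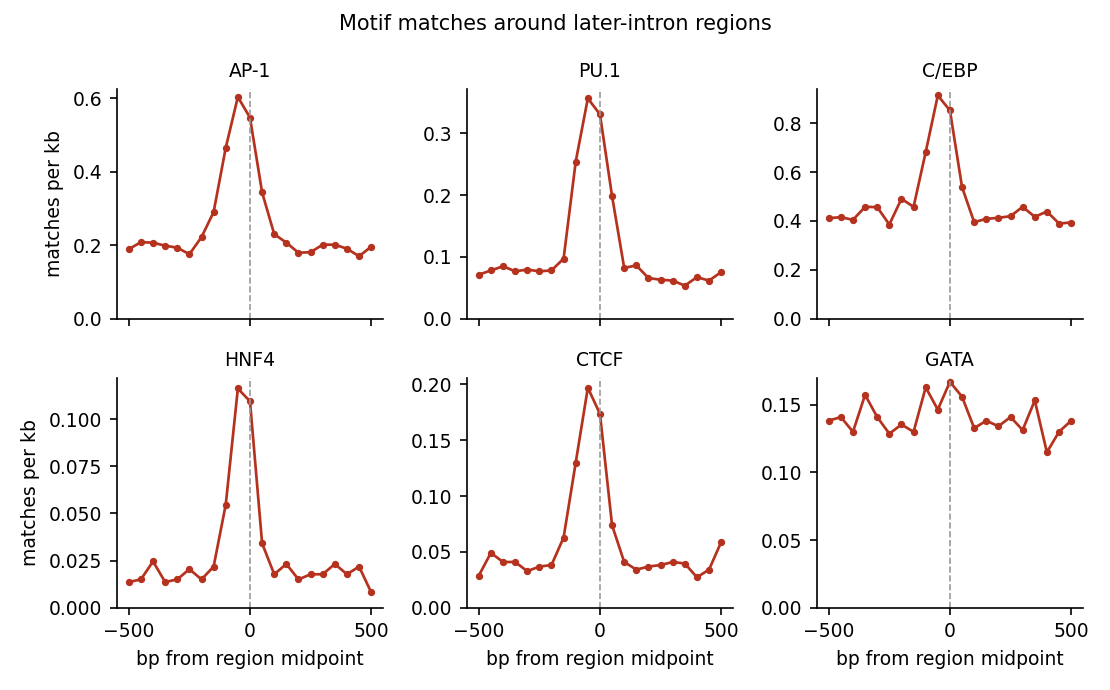
Matches per kb (y) in bins of 50 bp around the midpoint of later-intron regions (x, in bp, negative toward lower genome coordinates) for 6 motifs, with the midpoint as a dashed line. AP-1 peaks at 0.603 in the bin centered on −50 and falls to 0.343 at 50, and the other peaks are shifted to the same side, whereas GATA has none.

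Of 16153 coding genes with later-intron sequence, 5461 held 1 or more of these regions (33.8%), and 804 genes held 5 or more and with them 6710 of the regions (45.9%). The share grew with the length of later intron, from 8.12% of genes with under 5 kb to 83.8% of genes with over 200 kb. *Itpr1*, the IP3 receptor that releases calcium from the endoplasmic reticulum, held the most, with 36 regions in 323 kb, 10 of them in intron 44. *Fgfr2*, a receptor for fibroblast growth factors, held 31, each in intron 2, which runs over 2957 kb in the longest annotated transcript and takes in other genes. Under the rule, 1406 kb of *Fgfr2* counted as its later-intron sequence, which gives 2.20 regions per 100 kb. *Pde4d*, a cAMP phosphodiesterase gene, and *Wwox*, an oxidoreductase gene, held 27 each, with 20 of them in intron 3 and 18 in intron 8.

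The other genes with many regions differ in what their proteins do. *Dapk1* (death-associated protein kinase) held 26 in 154 kb, 17 of them in intron 2, and *Prkce* (protein kinase C epsilon) 26 in 287 kb. *Arid1b*, a subunit gene of the BAF chromatin remodeler, *Ctif*, and *Frmd4b* held 25 each, and 18 of the last lay in intron 2. *Gpr98*, a large adhesion receptor gene, held 24, of which 14 were in intron 83 of 89. *2010111I01Rik*, *Dlgap2* (a scaffold of the synapse), *Tns1* (tensin, at focal adhesions), and *Zmiz1* (a transcriptional coactivator) held 23 each. *Mad1l1*, of the spindle checkpoint, held 22, *Mtss1*, which binds actin and membranes, 21, with 19 in intron 3, and *Sept9* (a septin) 20. *Asap1*, *Kcnq1*, and *Rbm47* held 19 each. Per length, *Dapk1* with 16.8 and *Mtss1* with 18.99 regions per 100 kb stood well above *Wwox* with 3.05 and *Dlgap2* with 3.55.

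Among genes with 20 kb or more of later intron and 5 or more regions, the densest was *Tspan14*, a tetraspanin gene, with 9 regions in 25.4 kb or 35.4 per 100 kb, against 2.43 over all coding genes. *Tbc1d2b*, which acts on Rab proteins, had 34.2 and *Irak2*, a kinase of interleukin-1 and Toll-like receptor signaling, 30.9, with 12 regions each. *Tmprss6*, the hepatocyte protease that lowers hepcidin, had 30.9 (7 regions), and *Slc12a3*, a salt transporter of the kidney, 30.4 (10 regions, 5 of them in intron 24 of 24). They were followed by *Lasp1* with 28.9, *Smad7*, the inhibitor of TGF-β signaling, with 28.8, *Dcps* with 28.7, *Ndst1*, of heparan sulfate synthesis, with 28.6, and *Rgs10*, of G protein signaling, with 28.2.

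The label of the cells was set beside lists of genes typical of cell types. Of 22 macrophage genes with later-intron sequence, 11 held a region (50.0%, Wilson interval 30.7 to 69.3), against 42.6% of coding genes with like lengths of later intron, and the density was 4.31 per 100 kb (3.03 to 5.94). *Abca1* held 12 regions, 7 of them in intron 5, *Runx1*, a factor of blood cell development, held 8, and *Mertk*, a receptor for apoptotic cells, held 5. *Lyn*, *Msr1* (a scavenger receptor), *Spi1* (annotated as *Sfpi1*), and *Slc40a1* (ferroportin) held 2 each. None was found in the later introns of *Adgre1* (F4/80, annotated as *Emr1*, 119 kb), *Clec4f*, *Csf1r*, *Marco*, or *Cd163*, and these genes may still hold regions in exons, first introns, or near their TSS. Of the 37 regions in macrophage genes, 6 held ETS letters (16.2%, 7.65 to 31.1, against 4.56% of all later-intron regions) and 5 held AP-1 letters (13.5%, 5.91 to 28.0, against 6.84%). PU.1 letters were present in 2 (5.41%, 1.495 to 17.7, against 4.12%) and HNF4 letters in 0, which at this number allows a share of up to 9.41%, against 1.24%. The 12 motifs read in each list were not adjusted for, and AP-1 letters were also present in 12.9% of the 62 regions in neuron and muscle genes (6.69 to 23.4). ETS letters were present in 3 of the 13 regions in stellate cell genes (23.1%, 8.18 to 50.3).

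Genes listed for other cell types in the liver also held regions, and whether LMs express them too was not tested. Of 23 genes typical of sinusoidal endothelium, 18 held a region (78.3%, 58.1 to 90.3, against 50.1% of genes of like length), at 4.81 per 100 kb (3.68 to 6.18). *Ets1* held 8, *Nrp1* and *Stab2* (a scavenger receptor) 7 each, *Erg* 6, *Flt1* and *Pecam1* 5 each, and *Mrc1* 4. There was none in *Dll4*, *Emcn*, *Lyve1*, *Oit3*, or *Ptprb*. Of the 61 regions in endothelial genes, 4 held GATA letters (6.56%, 2.58 to 15.7, against 2.22% of all later-intron regions) and 0 held HNF4 letters. GATA letters were also present in 2 of the 13 regions in stellate cell genes (15.4%, 4.33 to 42.2). Of 25 hepatocyte genes, 10 held a region (40%, 23.4 to 59.3, against 34.8% of genes of like length), at 4.06 per 100 kb (2.63 to 6.00). *Ass1*, of the urea cycle, held 6, *Hnf4a* and *Ppara* 5 each, and *Alb* (albumin) and *Trf* (transferrin) 2 each, whereas *Cps1* with 86.2 kb, *Abcb11* with 81.3 kb, and *Apob* with 24.2 kb of later intron held none. Of their 25 regions, 4 held C/EBP letters (16%, 6.403 to 34.6, against 10.2% of all later-intron regions) and 1 HNF4 letters (4.0%, 0.710 to 19.5, against 1.24%). FOX letters were present in 1 (4.0%, 0.710 to 19.5, against 8.42%) and HNF1 letters in 0 (against 0.779%). AP-1, PU.1, and ETS letters were present in 0, which allows a share of up to 13.3% for each, against 6.84%, 4.12%, and 4.56% of all.

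The other 4 lists of cell types had lower densities. Stellate cell genes had 0.725 regions per 100 kb (0.386 to 1.24), with a region in 4 of 22 genes, or 18.2% against 40.9% of genes of like length (*Adamts2* with 7, and *Acta2*, *Lama2*, and *Pdgfrb* with 2 each). Lymphocyte genes had 1.29 (0.790 to 2.00), with a region in 12 of 25, or 48% against 41.3% of genes of like length, most of them in *Pax5* (4), *Bcl11b* (3), and *Tcf7* (3). Cholangiocyte genes had 1.40 (0.767 to 2.35), in 5 of 17 or 29.4% against 40.8%, with 5 regions in *Pkhd1* and 3 in *Cdh1*. Neuron and muscle genes, a list for comparison, had 0.577 (0.443 to 0.740), and 16 of 24 held a region (66.7%, against 67.6% of genes of like length), with 10 regions in *Nrxn3* and 9 in *Ank2*. Pooled over genes, macrophage, endothelial, and hepatocyte genes thus each had a density above the 2.43 of all coding genes, and their intervals overlap. The median density over genes was 0.918 per 100 kb for macrophage, 4.73 for endothelial, and 0 for hepatocyte genes, against 0 over all coding genes. *Abca1* and *Runx1* held 12 and 8 of the 37 regions in macrophage genes. Beyond 10 kb from every TSS the pooled density was 2.07 per 100 kb over all coding genes. Hepatocyte genes, with 8 regions there, had 2.30 (0.992 to 4.53), an interval that holds the 2.07. Macrophage genes had 3.94 (2.50 to 5.91) and endothelial genes 4.64 (3.32 to 6.32), and both intervals overlap that of hepatocyte genes. Density also falls with the length of later intron, from 43.8 regions per Mb in genes with under 5 kb of it to 12.3 per Mb in genes with over 200 kb. The part of length and of other cells in the preparation was not tested.

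**Figure D5:**
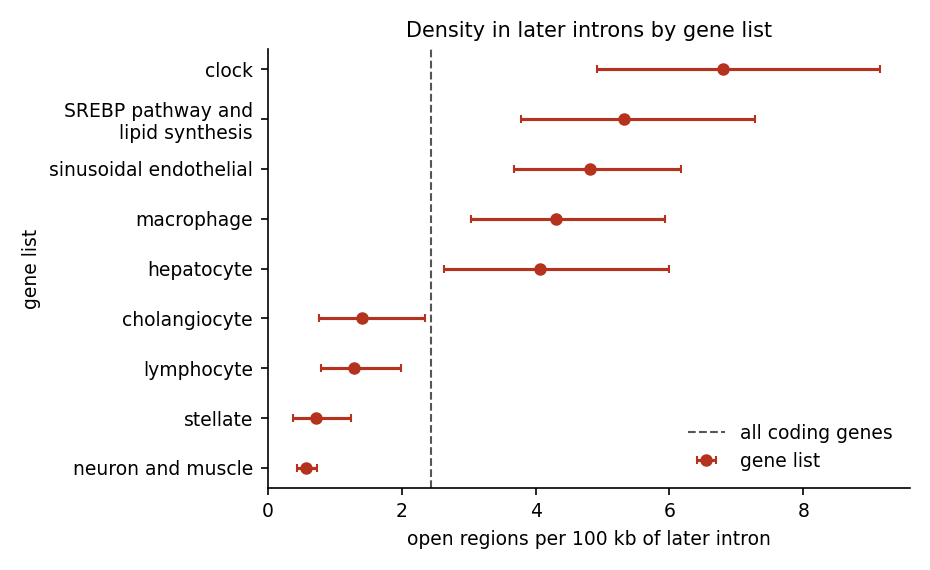
Open regions per 100 kb of later intron (x) for each gene list (y), with 95% Poisson intervals as bars and all coding genes as a dashed line at 2.43. Clock, SREBP, endothelial, macrophage, and hepatocyte genes lie between 4.06 and 6.79, and the other 4 lists lie below the line.

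The study concerns the clock and SREBP signaling. Pooled over genes, the lists of both had the highest densities of the 9 lists, and their intervals overlap that of endothelial genes. The median density over genes was highest for endothelial genes, with 4.73 per 100 kb against 4.505 for clock and 3.09 for SREBP genes. Of 20 clock genes with later-intron sequence 13 held a region (65.0%, 43.3 to 81.9, against 35.01% of coding genes of like length), at 6.79 per 100 kb (4.92 to 9.15). *Rora*, which activates through the letters that REV-ERBs also bind, held 8, of which 6 were in intron 2. *Arntl*, which encodes BMAL1, held 7, with 6 in intron 2, and *Per2*, a repressor of the clock, held 7 in 29.2 kb, or 23.99 per 100 kb. *Hlf* and *Npas2* held 4 each. *Nr1d2*, which encodes REV-ERBβ, held 1, and *Nr1d1*, which encodes REV-ERBα and has 0.406 kb of later intron, held none. Of the 43 regions in clock genes, 4 held AP-1 letters (9.30%, 3.68 to 21.6, against 6.84% of all later-intron regions), 3 held HNF4 letters (6.98%, 2.40 to 18.6, against 1.24%), and 0 held PU.1 letters, which allows a share of up to 8.20%, against 4.12%. Of 22 genes of the SREBP pathway and lipid synthesis 14 held a region (63.6%, 43.0 to 80.3, against 39.8%), at 5.33 per 100 kb (3.79 to 7.28). *Elovl6*, which elongates fatty acids, held 10, of which 9 were in intron 2, *Me1* (malic enzyme) 6, *Dgat2*, of triglyceride synthesis, 5 in 14.2 kb, *Acly* (ATP citrate lyase) 4, and *Srebf2* 3. *Scap* held 2. There was none in *Fasn*, *Insig1*, *Insig2*, *Scd1*, or *Sqle*, and *Srebf1* has no later-intron sequence by this rule. Since the list names no genotype or time, these counts do not show in which of them a region was open.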

How the data were processed

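Fast-ATAC-Seq libraries of isolated LMs were processed by the authors with the ATAC-Seq pipeline of the Kundaje laboratory. Reads were trimmed and aligned to mm9 with Bowtie, and peaks were called after alignments of replicates had been merged. The deposited list holds chromosome, start, and end alone, with no count or other score per region. The version and settings of the pipeline, its peak threshold, and the joining of peaks are not given in the sources used here, and the submitters' processing notes also name HOMER. Starts, counted from 0 in the deposited list, are given from 1. Gene models were those of GENCODE for NCBIM37, with 21418 protein-coding genes of 34653 on chromosomes 1 to 19, and the longest transcript by span gave the introns.

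Sequence was assigned to classes base by base under the same rule as midpoints, which gave the densities. Ratios have exact conditional intervals, shares Wilson intervals, differences of shares Newcombe intervals, and means normal intervals, all at 95%. A region in several coding genes (168 regions) was counted in the gene of shortest span. Windows held 75 bp to either side of the midpoint. Genes named were the 20 with the most regions, the 10 densest with 20 kb or more of later intron and 5 or more regions, the top of each gene list, with ties by name, and the 3 widest regions. Genes of the lists on chromosome X (*Vsig4*, *Cybb*, *F8*, *Dmd*, and *Mbtps2*) and *Hmgcs1*, which was not found by name, were left out, and some named genes are not reported here. The members, gene lists, and motifs were chosen with earlier results of these data known. Steps were tested on simulated data first. The steps ran in Python 3.11.15 with SciPy 1.17.1 and NumPy 2.4.6, and figures were drawn with matplotlib 3.10.9.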

Additional observations from a re-analysis of the deposited data

How the results depend on the processing

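Later introns held 13600 regions with a distance of 2 kb to a TSS and 11420 with 5 kb, against 14630, and other gene models changed this count less. The higher share of regions of the smallest width in later than in first introns did not hold beyond 10 kb from every TSS (0.604 points) or among regions with no other within 1000 bp (1.49 points), and for these the interval held 0. The lower G and C content than in intergenic regions had an interval without 0 beyond 10 kb (−0.181 points). Beyond 10 kb, 0 motifs were higher and 2 lower than in first introns. These 2 were ETS (−1.09 points, −2.04 to −0.218) and MEF2 (−0.413 points, −0.864 to −0.0469), and not TEAD. The same 2 were lower among wider regions, where 2 others were higher. With the window moved by 35 bp, a setting added after the data had been seen, MEF2 and TEAD were lower and 2 others higher. Against intergenic regions the motifs higher in later introns numbered 2 beyond 10 kb, and 0 with whole regions or the moved window. Those lower numbered 5 with windows of 100 bp to either side, 6 with whole regions, and 4 with the moved window. The HNF4 share was higher in later introns in each alternative, by 0.237 to 0.334 points than in first introns and by 0.204 to 0.296 than in intergenic regions, and the interval held 0 in all but windows of 100 bp to either side. Counted beyond 10 kb from every TSS, 27.3% of macrophage genes, 28.0% of lymphocyte genes, 35% of clock genes, and 19.9% of all coding genes held a region. No density ratio and no difference with an interval without 0 changed its direction in the alternatives run. Some differences whose interval held 0 changed sign, such as PU.1 against first introns (−0.0275 points, and 0.448 beyond 10 kb). The cause of these changes was not tested. Excluding repeats was planned and was not run, since the reference marks 0 bases as repeats. No paired analysis was possible because no library has values of its own here. The joined list carries no depth, so differences between libraries were not detectable.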
